A study of Mus musculus with 32 samples.

Results

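The genes described here encode subunits of the receptors for glutamate and GABA. They were taken from a list of 33 mouse genes, of which 32 had a probe set with a single gene symbol on the array. Grin1 had none and was not analysed here. The 32 genes, of 19938 genes measured, comprise 4 AMPA, 5 NMDA and 5 kainate receptor subunits, 6 metabotropic glutamate receptors, 10 GABA-A receptor subunits and both GABA-B receptor subunits. Where a gene had several probe sets, as Gabrb2 did, the one with the highest average across the 32 arrays was used.

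The study implanted BAL17, a B cell lymphoma line of BALB/c mice, or the line BAL17VII derived from it, into the brains of wild-type BALB/c mice to model lymphoma that grows in the brain. There were 5 brains with BAL17 at day 21, 5 with BAL17VII at day 21 and 5 with BAL17 at day 28 after implantation of 500000 cells, and 5 brains of mice injected with PBS, taken at day 28. No PBS group of day 21 was analysed, so in comparisons of day 21 brains with PBS brains the day differs along with the cells. Cultured cells of both lines, 6 arrays each, serve as a background reference, since lymphoma cells are not neurons. Brains are labelled as whole brain, while the extraction entry names frozen tissue sections. Whether replicates of a line came from separate cultures is not stated, so the spread between them may be technical. The labels number the cultured-cell arrays and the brain arrays in separate series. What these series stand for is not stated, and they cannot be told apart from tissue.

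Glutamate is the main excitatory transmitter of the brain and GABA the main inhibitory one. AMPA, NMDA and kainate receptors are cation channels opened by glutamate. AMPA receptors carry the fast current, NMDA receptors admit calcium when the cell is already depolarised, and kainate receptors adjust transmission on both sides of the synapse. GABA-A receptors are chloride channels built from different subunit families, whose combination differs between brain regions. Metabotropic glutamate receptors and the GABA-B receptor act through G proteins. Some of these genes are also expressed outside neurons, for example Grm3 in astrocytes and Gria4 in glial precursors.

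The array gave log2 intensities whose medians per array lay between 6.40 and 6.63 (log2), over all probe sets but controls. Arrays of a group correlated at 0.9789 to 0.9940 over all genes. The brains carried neuronal RNA throughout: the mean of 12 pan-neuron genes (for example Snap25 and Syn1) ranged from 10.11 to 10.81 over the 20 brains, and the group mean was 5.61 in BAL17VII cells and 5.65 in BAL17 cells. The mean of 10 B lineage genes was 6.21 ± 0.13 in PBS brains, 7.77 ± 0.20 in BAL17 brains at day 21, 7.90 ± 0.11 at day 28 and 7.07 ± 0.59 in BAL17VII brains (SD, n = 5 each), against 9.23 in cultured BAL17VII and 9.20 in cultured BAL17 cells. Replicate 1 of the BAL17VII brains stood at the PBS level in these genes (6.08) and in 9 mitosis genes (5.45, where PBS brains had 5.25 to 5.60).

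The receptor genes were brain genes in these data. For 28 of 32 genes every brain lay above every cultured-cell array, against 15.3% of all 19938 genes. The distance between the PBS mean and the mean of the cultured arrays ranged from 0.32 to 7.37 on the log2 scale, with a median of 3.86. The 4 genes whose ranges overlapped with the cultured cells were Grin2c, Grin2d, Grik4 and Grm2. Grin2d did not exceed its array's median in any brain and was not tested between brains. The other 3 genes had PBS means only 0.65 to 0.77 above the mean of the cultured arrays. Of these, Grin2c and Grm2 exceeded the array median on every array of brains and of cultured cells. The remaining 31 genes passed the filter on low values, of which Grik4 and Grik1 lay above the array median in 18 and 11 of 20 brains.

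**Figure D1:**
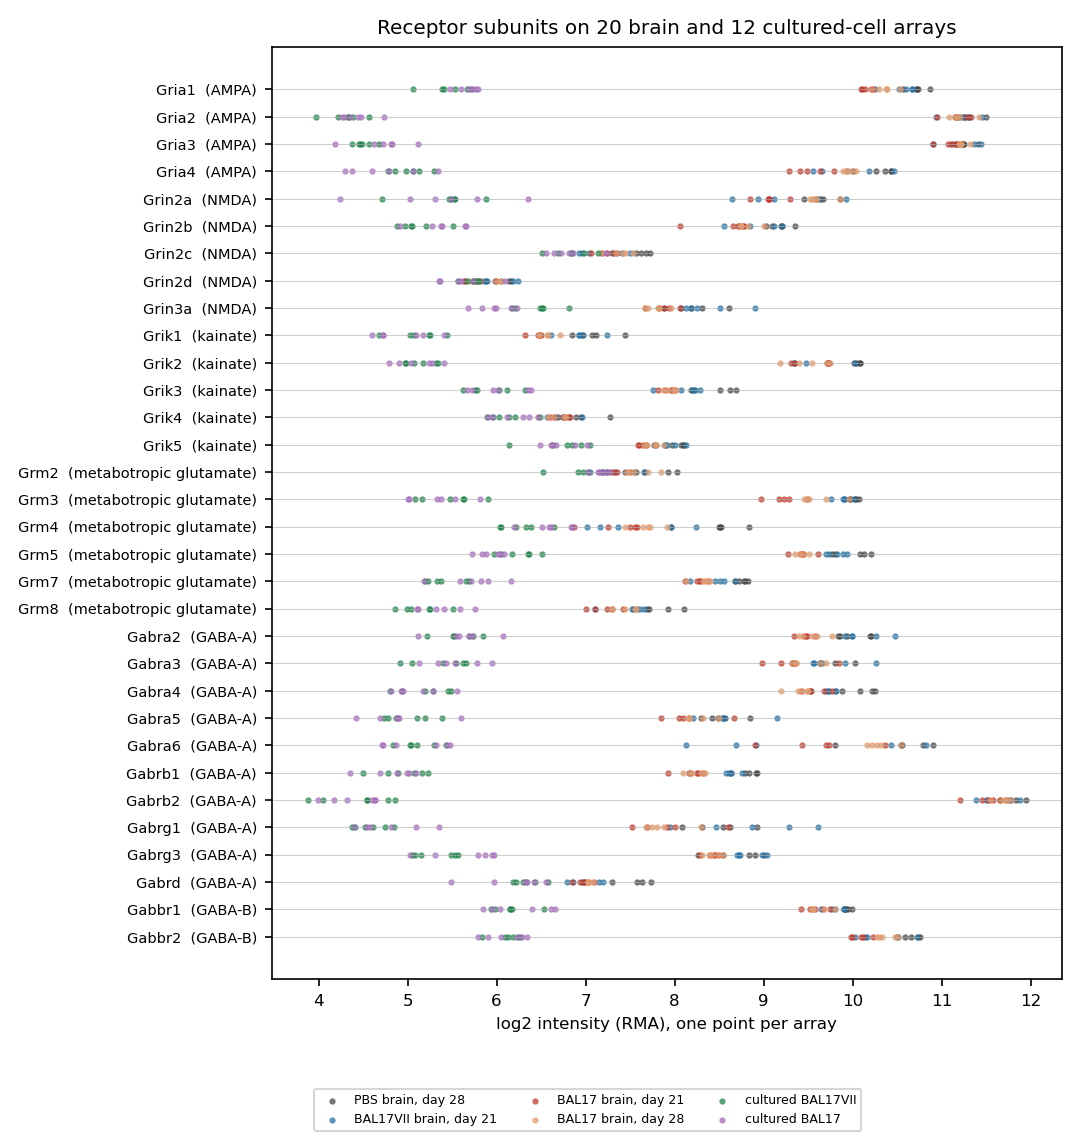
Log2 intensity of the 32 receptor genes (rows, with receptor class) on every array, 1 point per array, coloured by group. Brain points stand to the right of cultured-cell points for 28 genes, and the ranges overlap for Grin2c, Grin2d, Grik4 and Grm2.

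Receptor genes were lower in brains with BAL17 lymphoma than in PBS brains. At day 21, 24 of 31 tested genes fell and none rose (limma, adjusted p under 0.05 over 11474 genes), where 33.1% of all genes tested were called lower and 13% higher. All 31 differences were negative, with a median of -0.50 against -0.12 over all genes tested. In 16 of the 31 genes every implanted brain lay below every PBS brain, against 18.8% of all genes tested. At day 28, 18 of 31 genes fell and none rose, where 22.5% of all genes were called lower and 8.91% higher. All 31 differences were again negative, with a median of -0.36 against -0.10 over all genes, and 12 genes did not overlap between the groups (15.9% of all genes lay below PBS brains without overlap). Both comparisons use the same PBS brains, so their directions are not independent of each other.

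Many markers of neurons and glia were lower in the same brains, and most tested B lineage genes were higher. Not every marker list fell at both days. Of 12 pan-neuron genes 10 fell at day 21, with a median difference of -0.46, and 9 fell at day 28, with a median of -0.40. Eno2, a neuronal enolase, differed by -0.85 ± 0.11 and Tubb3, a neuronal tubulin, by -0.79 ± 0.12 at day 21. Oligodendrocyte genes fell in 7 of 8 cases at day 21 (median -0.82) and in 8 of 8 at day 28 (median -0.78). Astrocyte genes fell in 7 of 10 (median -0.43) and 5 of 10 (median -0.28). Of 6 microglia genes 6 fell at day 21 (median -0.41) and 1 at day 28 (median -0.19). Of 4 tested oligodendrocyte precursor genes 4 and 3 fell. Cortical projection neuron genes fell in 5 of 9 cases at day 21 (median -0.25) and 1 of 9 at day 28 (median 0.03). Striatal neuron genes fell in 0 of 8 at day 21 and 8 of 8 at day 28. For the B lineage list, 8 of 9 tested genes were called higher at each day. That list also held 1 gene called lower at day 21, and none at day 28. The part of these cell types and of lymphoma RNA in the receptor results was not tested. In bulk tissue fewer cells of a type and less RNA per cell cannot be told apart. When every array was shifted to the same pan-neuron mean, 5 receptor genes were called at day 21 (3 higher and 2 lower) and 4 at day 28 (1 higher and 3 lower). That shift adds the same amount to every gene of a comparison, so 8064 of 11474 genes were called at day 21 with a median of 0.37, and 5926 at day 28 with a median of 0.24. Under that shift Grm4 (-0.63) and Grm3 (-0.30) were still lower at day 21, and Gria2 (0.36), Gria3 (0.31) and Grik4 (0.29) were higher, none of them above the median of all genes. At day 28 Grm5 (-0.23), Gabra4 (-0.25) and Gabrb1 (-0.26) were lower and Gria3 (0.31) was higher, where the median of all genes was 0.24.

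**Figure D2:**
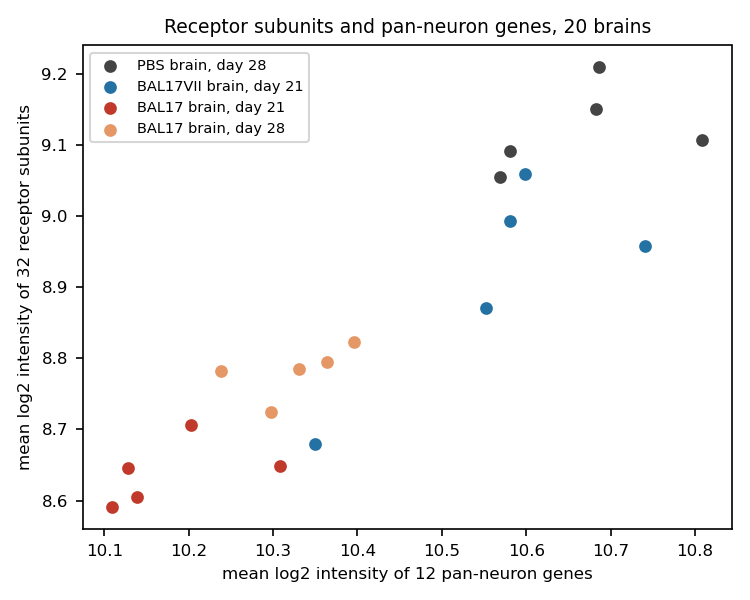
Mean log2 intensity of the 32 receptor genes (vertical) against that of 12 pan-neuron genes (horizontal) in each of 20 brains, coloured by group. PBS brains lie at 9.05 to 9.21 in the receptor mean and BAL17 brains at 8.59 to 8.71 (day 21) and 8.72 to 8.82 (day 28), and BAL17VII brains at 8.68 to 9.06.

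Brains with BAL17VII at day 21 differed less from PBS brains. Of 31 receptor genes 4 fell and none rose, where 1.71% of all 11474 genes were called lower and 3.41% higher, and 16 had an unadjusted p under 0.05. The genes that fell were Grm4, Gabrd, Grin2c and Grm7. No gene separated the groups without overlap, which 1.8% of all genes did by lying below. The median difference was -0.19, and -0.03 over all genes. The count rested on single brains. Without BAL17VII replicate 4 it was 11 and without replicate 5 it was 6, all lower. Without replicate 1, which stood at the PBS level in B lineage and mitosis genes, it was 3. Without BAL17VII replicate 2 or 3 or PBS replicate 5 it was 1, and without PBS replicate 1 it was 2. A fit on the arrays of these groups alone called 0. The spread in BAL17VII brains was larger than the estimate shared by all groups for genes such as Gabra6 (SD 1.17).

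The direct comparison at day 21 asks whether the lines leave different receptor profiles. BAL17VII brains had higher levels than BAL17 brains for 14 of 31 genes and lower levels for none, where 18.1% of all genes were called higher and 6.85% lower. In 8 genes every BAL17VII brain lay above every BAL17 brain, against 6.82% of all genes. The median difference was 0.23, and 0.07 over all genes. Without BAL17VII replicate 1, which stood at the PBS level in B lineage and mitosis genes, 11 genes were called, all higher. Leaving out any 1 array of these groups gave 10 to 19 calls. B lineage genes ran the other way, with 7 of 9 tested lower in BAL17VII brains, and 8 of 12 pan-neuron genes were higher. So were 7 of 8 oligodendrocyte genes (median 0.73), 6 of 6 microglia genes (median 0.57), 7 of 10 astrocyte genes (median 0.43) and 4 of 4 oligodendrocyte precursor genes (median 0.44). After the shift to an equal pan-neuron mean 3 receptor genes were higher (Grm3, Gabra2 and Gabrg1) and 10 were lower, while the median of all genes moved to -0.31 and 7579 of them were called.

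Between days 21 and 28 of BAL17 growth, 1 of 31 receptor genes was called: Grm3 rose by 0.40 ± 0.10 (adjusted p = 0.0379), where 1.06% of all genes rose and 0.505% fell. This call was lost without any one of BAL17 day 21 replicates 1, 3, 4 and 5 or day 28 replicates 1, 3 and 5. Of 31 differences 25 were positive, with a median of 0.10, and 7 had an unadjusted p under 0.05. Gria3, Gria4, Grin2a and Gabbr2 did not overlap between the days, all higher at day 28, where 3.61% of all genes did so, but none was called (adjusted p from 0.0956 to 0.49).

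**Figure D3:**
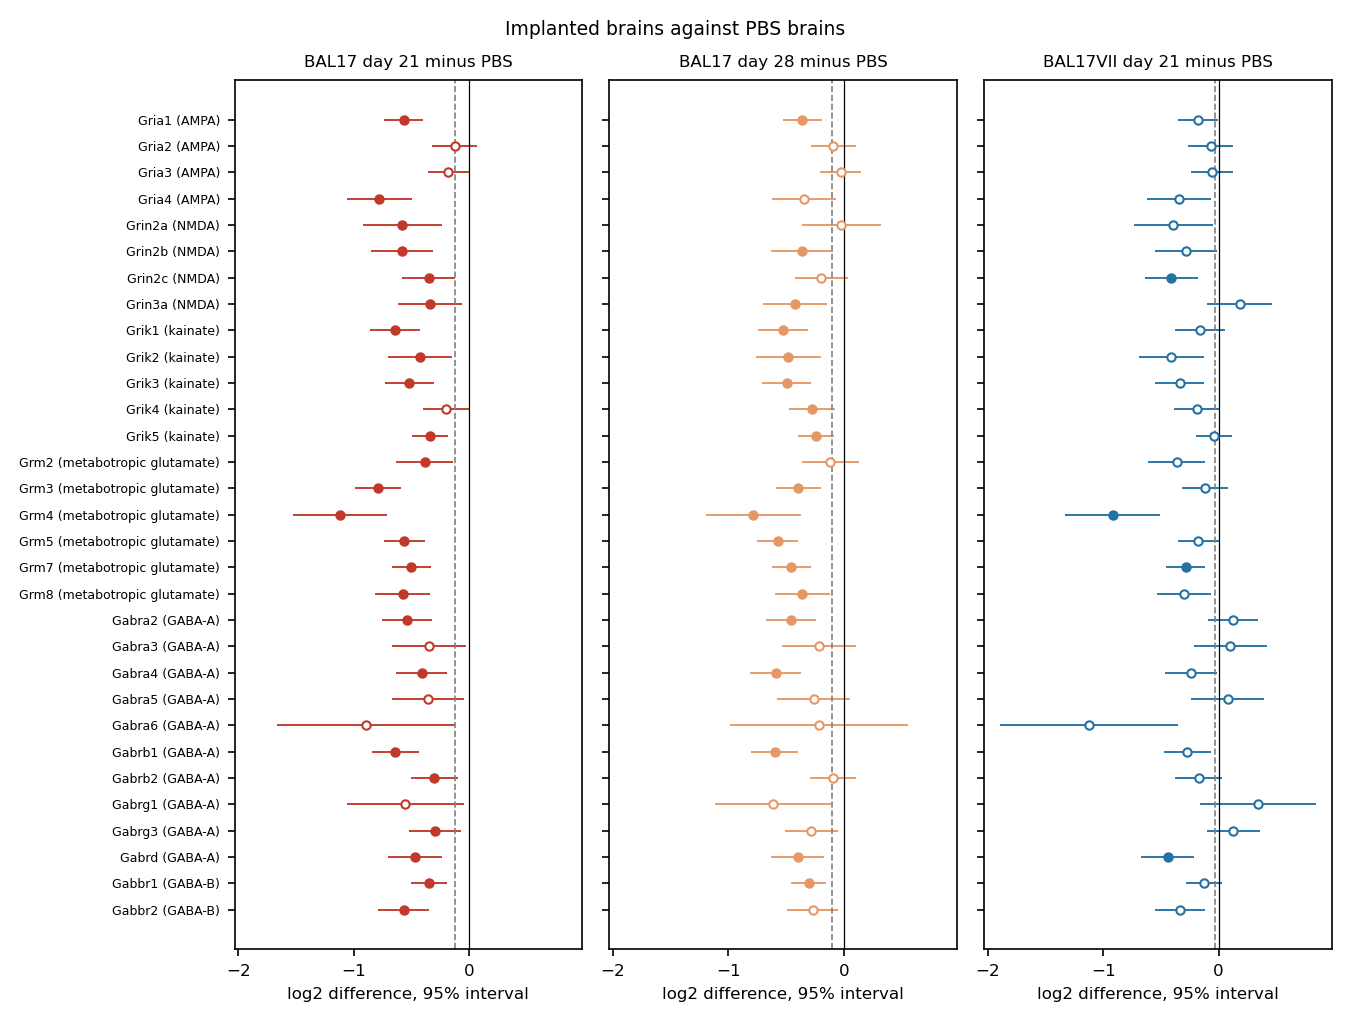
Log2 difference from PBS brains for 31 receptor genes with its 95% interval, in BAL17 brains at day 21, BAL17 brains at day 28 and BAL17VII brains at day 21. Filled points passed the test (24, 18 and 4 genes), and the dashed line is the median of all genes tested (-0.12, -0.10 and -0.03).

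Of the 4 AMPA receptor subunits 2 were called lower at day 21 and 1 at day 28, and all 4 differences were negative at both days. Of all genes 33.1% and 22.5% were called lower. Gria1, which encodes the GluA1 subunit known for its part in synaptic plasticity, read 10.74, 10.56, 10.71, 10.87 and 10.73 in the PBS brains. It read 10.10, 10.10, 10.23, 10.14 and 10.21 in BAL17 brains at day 21. The groups did not overlap, and the difference was -0.56 ± 0.08 (adjusted p = 1.62e-05), a level that fell by 32.4%. At day 28 Gria1 fell by 0.36 ± 0.08 on the log2 scale, and it was higher in BAL17VII than in BAL17 brains by 0.39 ± 0.08. Gria4 (GluA4) fell by 0.78 ± 0.14 at day 21 without overlap, to between 9.29 and 9.79 from 10.01 to 10.43, and at day 28 differed by -0.34 ± 0.14 (adjusted p = 0.0559).

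Gria2, whose product keeps calcium out of the AMPA channel, read 11.50, 11.18, 11.31, 11.24 and 11.26 in PBS brains. It read 11.15, 10.95, 11.29, 11.16 and 11.32 in BAL17 brains at day 21, and the groups overlapped. The difference was -0.12, with a 95% interval from -0.32 to 0.07 (adjusted p = 0.289), and at day 28 it was -0.09 (interval -0.29 to 0.11). Gria3 (GluA3) differed by -0.18 (interval -0.36 to 0.00) and -0.03 (interval -0.21 to 0.15). The intervals of Gria1 and Gria2 at day 21, -0.74 to -0.39 and -0.32 to 0.07, did not overlap, although the difference between the genes was not tested. Gria2 and Gria3 were called higher at day 21 after the shift to an equal pan-neuron mean, at which the median of all genes was 0.37.

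Among the NMDA receptor genes, Grin2b (GluN2B) read 9.36, 9.09, 9.02, 9.20 and 9.19 in PBS brains. It read 8.71, 8.06, 8.78, 8.65 and 8.77 in BAL17 brains at day 21, all below the PBS brains (-0.58 ± 0.13, adjusted p = 0.00114). Grin2a (GluN2A), the subunit that gains ground as synapses mature, had a mean of 9.64 in PBS brains, against 9.06 in BAL17 brains at day 21 (-0.58 ± 0.16), also without overlap. At day 28 Grin2a stood at 9.62 with a difference of -0.02 (interval -0.37 to 0.32). Grin2b fell by 0.36 ± 0.13 (interval -0.63 to -0.09, adjusted p = 0.0395), a call lost in 11 of 20 alternatives, and the difference between these genes was not tested. Grin3a (GluN3A), which lowers calcium entry, fell by 0.34 ± 0.13 at day 21 and by 0.42 ± 0.13 at day 28, and was higher in BAL17VII than in BAL17 brains by 0.52 ± 0.13 without overlap. The call for Grin3a at day 21 was kept in only 11 of 20 alternatives. Grin2c, a subunit of cerebellar granule cells, fell by 0.35 ± 0.11 in BAL17 brains at day 21 and by 0.41 ± 0.11 in BAL17VII brains, from a PBS mean of 7.58 that lay 0.76 above the cultured cells. The Grin2c call in BAL17VII brains was lost in 9 of 19 alternatives.

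Of the 5 kainate receptor genes 4 fell at day 21 and 5 at day 28. The shares of all genes called lower were 33.1% and 22.5%. Grik1 (GluK1) read 7.45, 7.07, 6.85, 6.97 and 7.12 in PBS brains, against 6.32 to 6.50 in BAL17 brains at day 21. Every implanted brain lay below every PBS brain (-0.64 ± 0.10, adjusted p = 5.66e-05), as at day 28 (-0.53 ± 0.10). Grik1 was higher in BAL17VII brains than in BAL17 brains by 0.48 ± 0.10. It lay above the array median in all 5 PBS and all 5 BAL17VII brains. Among BAL17 brains it did so in 0 at day 21 and 1 at day 28. Grik1 thus passed the filter only through the groups where it was high, which limits what its test and lack of overlap show. Grik3 (GluK3) fell without overlap at both days, by 0.52 ± 0.10 and 0.49 ± 0.10. Grik2 (GluK2) fell by 0.43 ± 0.13 and 0.48 ± 0.13 with overlapping groups. Grik5, a subunit that forms channels only together with another kainate subunit, fell by 0.34 ± 0.08 and 0.24 ± 0.08, and Grik4, of the same kind, fell at day 28 (-0.27 ± 0.10) from a level near that of the cultured cells. Calls at day 28 were kept in only 12 of 19 alternatives for Grik4 and in 14 of 20 for Grik5.

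All 6 metabotropic glutamate receptor genes fell at day 21, and 5 of them did so without overlap. Of all genes 33.1% were called lower and 18.8% lay below PBS brains without overlap. Grm4, a presynaptic receptor of the parallel fibres in the cerebellum, read 8.51, 7.96, 8.50, 8.84 and 8.52 in PBS brains and 7.49, 6.87, 7.57, 7.55 and 7.26 in BAL17 brains at day 21. Its difference of -1.12 ± 0.20 (adjusted p = 0.000119) was the largest among the 31 genes in that comparison, and at day 28 it was -0.78 ± 0.20. In BAL17VII brains Grm4 read 7.02, 7.16, 7.36, 8.24 and 7.96. These brains spread over a wide range, whose highest, replicate 4, lay within the PBS values, and the difference from PBS was -0.92 ± 0.20 (adjusted p = 0.00715). Grm3, a receptor of astrocytes and neurons that inhibits cyclic AMP formation, read 9.97, 10.07, 10.04, 9.97 and 10.03 in PBS brains, a narrow range. In BAL17 brains it read 9.17, 9.48, 9.28, 8.97 and 9.22 at day 21 (-0.79 ± 0.10, adjusted p = 1.91e-06) and 9.96, 9.48, 9.70, 9.45 and 9.51 at day 28 (-0.39 ± 0.10). BAL17VII brains read 9.91, 9.76, 9.92, 10.01 and 9.90, all above the BAL17 brains of that day (0.67 ± 0.10). Beside Grm3, 7 of 10 astrocyte genes fell in BAL17 brains at day 21, with the glutamate transporter genes Slc1a3 at -0.62 ± 0.08 and Slc1a2 at -0.42 ± 0.07. The part of astrocyte RNA in the Grm3 result was not tested.

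Grm5, the receptor that couples to phospholipase C in forebrain neurons, fell by 0.56 ± 0.09 at day 21 and by 0.57 ± 0.09 at day 28 without overlap. It read 9.27 to 9.61 and 9.35 to 9.51 in those brains, against 9.77 to 10.21 in PBS brains. Grm7, a presynaptic receptor of low glutamate affinity, fell by 0.50 ± 0.08 and 0.45 ± 0.08, also without overlap, and in BAL17VII brains by 0.29 ± 0.08 (adjusted p = 0.0463), a call lost in 12 of 20 alternatives. Grm8, of the same group of receptors, fell by 0.58 ± 0.11 at day 21 and 0.36 ± 0.11 at day 28. Grm2, a presynaptic receptor close to Grm3 in sequence, fell at day 21 (-0.38 ± 0.12) from a PBS mean of 7.72 that lay 0.65 above the cultured cells.

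**Figure D4:**
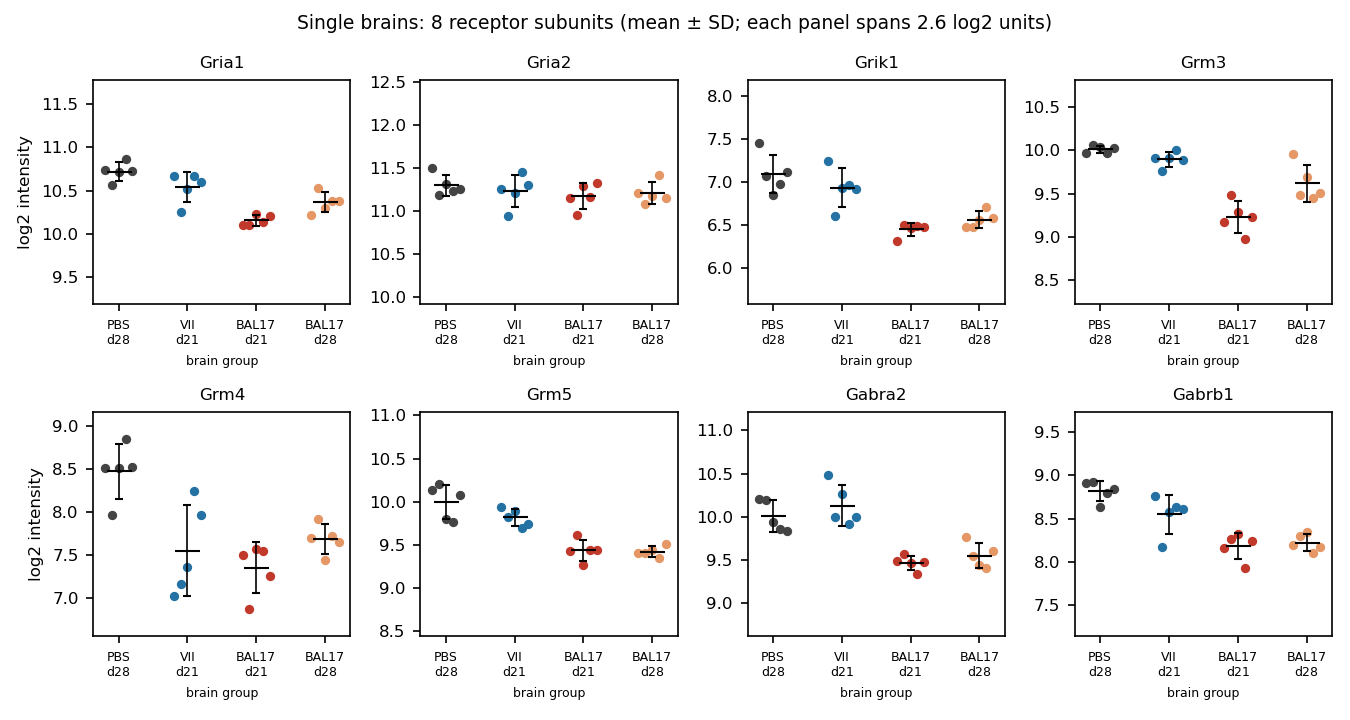
Log2 intensity of 8 receptor genes in single brains of the 4 groups (points), with mean and SD (bars), 5 brains per group. Gria1, Grik1, Grm3, Grm4, Grm5, Gabra2 and Gabrb1 stand below the PBS brains at day 21 in every BAL17 brain, while Gria2 overlaps in all groups.

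Of 10 GABA-A receptor genes 6 fell at day 21 and 4 at day 28. Of all genes tested 33.1% and 22.5% were called lower at these days. Gabrb1, a beta subunit that lines the GABA site together with an alpha subunit, read 8.92, 8.92, 8.64, 8.79 and 8.84 in PBS brains and 8.16, 8.26, 8.32, 7.93 and 8.25 in BAL17 brains at day 21. The groups were apart at day 21 (-0.64 ± 0.10, adjusted p = 2.84e-05) and at day 28 (-0.60 ± 0.10). Gabra2, the alpha subunit of many forebrain synapses, fell without overlap by 0.54 ± 0.11 and 0.46 ± 0.11. In BAL17VII brains Gabra2 read 9.92 to 10.48, above every BAL17 brain of that day (0.66 ± 0.11, adjusted p = 0.000245) and with a difference of 0.12 ± 0.11 from PBS brains. Gabra4, a subunit of extrasynaptic receptors in thalamus and striatum, fell by 0.41 ± 0.11 at day 21 and by 0.59 ± 0.11 at day 28, and only the later groups were without overlap. Beside that, 8 of 8 tested striatal neuron genes fell at day 28 and none of the 8 was called at day 21. Their mean was 8.01 ± 0.37 at day 28 and 9.12 ± 0.53 in PBS brains (SD, n = 5), where replicate 4 was lowest in that mean (8.24) and in Gabra4 (9.53). Of 6 tested thalamic neuron genes 3 fell at day 21 (median -0.36) and 6 at day 28 (median -0.60). The part of striatal and thalamic neurons in the Gabra4 result was not tested.

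Gabrb2, a further beta subunit, fell by 0.30 ± 0.10 at day 21 without overlap and differed by -0.10 at day 28 (interval -0.30 to 0.10). Its 3 probe sets gave -0.30, -0.41 and -0.18 at day 21. Gabrd, the delta subunit of receptors that carry tonic inhibition, fell in all 3 comparisons with PBS brains, by 0.47 ± 0.11 and 0.40 ± 0.11 in BAL17 brains at days 21 and 28 and by 0.44 ± 0.11 in BAL17VII brains. Its PBS values, 7.30, 6.96, 7.57, 7.63 and 7.73, spread widely, and replicate 2 overlapped with the implanted brains. The Gabrd call in BAL17VII brains was lost in 7 of 19 alternatives. Gabrg3, a gamma subunit, fell at day 21 (-0.29 ± 0.11, adjusted p = 0.0329), a call kept in only 12 of 20 alternatives. Gabra3 and Gabra5, alpha subunits of ventral and hippocampal regions, had differences from PBS of -0.35 ± 0.15 and -0.36 ± 0.15 at day 21 (adjusted p = 0.0694 and 0.0585). Both were higher in BAL17VII than in BAL17 brains (0.45 ± 0.15 and 0.43 ± 0.15), calls that were lost in 9 and 10 of 20 alternatives.

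The GABA-B receptor works only as a pair of its subunits. Gabbr1, which binds GABA, had PBS values within 9.90 to 9.99 and fell to between 9.42 and 9.74 at day 21 (-0.35 ± 0.07, adjusted p = 0.00077) and to between 9.54 and 9.81 at day 28 (-0.31 ± 0.07), without overlap at either day. Gabbr2, which couples to G proteins, fell by 0.56 ± 0.11 at day 21 without overlap. At day 28 its difference was -0.27 ± 0.11 (adjusted p = 0.0563). In BAL17VII brains Gabbr1 and Gabbr2 differed from PBS by -0.13 ± 0.07 and -0.33 ± 0.11, neither of which was called.

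Single BAL17VII brains differed widely in a few receptor genes. Gabra6, the alpha subunit of cerebellar granule cells, read 8.13, 8.91, 8.69, 10.83 and 10.43 in replicates 1 to 5, where PBS brains read 10.55, 9.80, 10.90, 10.79 and 10.56. Replicates 1, 2 and 3 lay below every PBS brain, and replicates 4 and 5 within their range. The difference of -1.12 ± 0.37 from PBS brains was not called (adjusted p = 0.0801), nor was that in BAL17 brains at day 21 (-0.89 ± 0.37, adjusted p = 0.0536). The mean of 13 cerebellar neuron genes, such as Cbln1 and Pax6, was also lowest in replicate 1 and highest in replicate 4, with 7.49, 7.66, 7.66, 8.73 and 8.50 in BAL17VII replicates 1 to 5 against 8.25 to 8.89 in PBS brains.

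BAL17 brains at day 21 had cerebellar means of 7.57 to 8.26, and 12 of 13 cerebellar genes fell, where 33.1% of all genes did. At day 28 the means were 8.22 to 8.52 and 2 of 13 genes fell, where 22.5% of all genes did. Gabra6 at day 28 read 10.16 to 10.54, with a difference from PBS of -0.22 ± 0.37. The granule cell genes Grm4, Grin2c and Gabrd, called lower in BAL17VII brains, stood at 7.02, 6.92 and 6.98 in replicate 1. In replicate 4 they stood at 8.24, 7.50 and 7.15. Among BAL17VII brains, replicate 1 was lowest and replicate 4 highest for Grm4 and Grin2c. Gabrd had another order, with replicate 1 at the group median and replicate 4 not the highest. The mean of the mitosis genes was 5.45 in replicate 1 and 7.36 in replicate 4. The lowest Gabra6 value and the lowest B lineage mean among implanted brains were both those of 1 brain, BAL17VII replicate 1. The relation of Gabra6 to lymphoma RNA was not tested. How much cerebellar tissue each extract held was not given, and its part in these results was not tested.

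Other receptor genes had another order among the same brains. Gabrg1, a gamma subunit of hypothalamus, amygdala and some glia, read 9.61, 8.87, 9.28, 7.95 and 8.46 in BAL17VII replicates 1 to 5 and 8.08 to 8.93 in PBS brains. Gabra5 read 9.15, 8.20, 8.54, 8.53 and 8.56, and Grin3a 8.90, 8.25, 8.51, 8.12 and 8.18, with replicate 1 highest for all 3 genes. Gabrg1 was higher in BAL17VII than in BAL17 brains by 0.89 ± 0.24 (adjusted p = 0.0114), with overlapping groups, and did not pass the test against PBS (0.34 ± 0.24). The mean of 7 pituitary genes, such as Gh and Prl, was 7.17, 9.14, 8.82, 5.58 and 8.60 in the BAL17VII brains and 5.61 to 6.54 in PBS brains. It was thus near the PBS level in replicate 4, and its part was not tested.

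**Figure D5:**
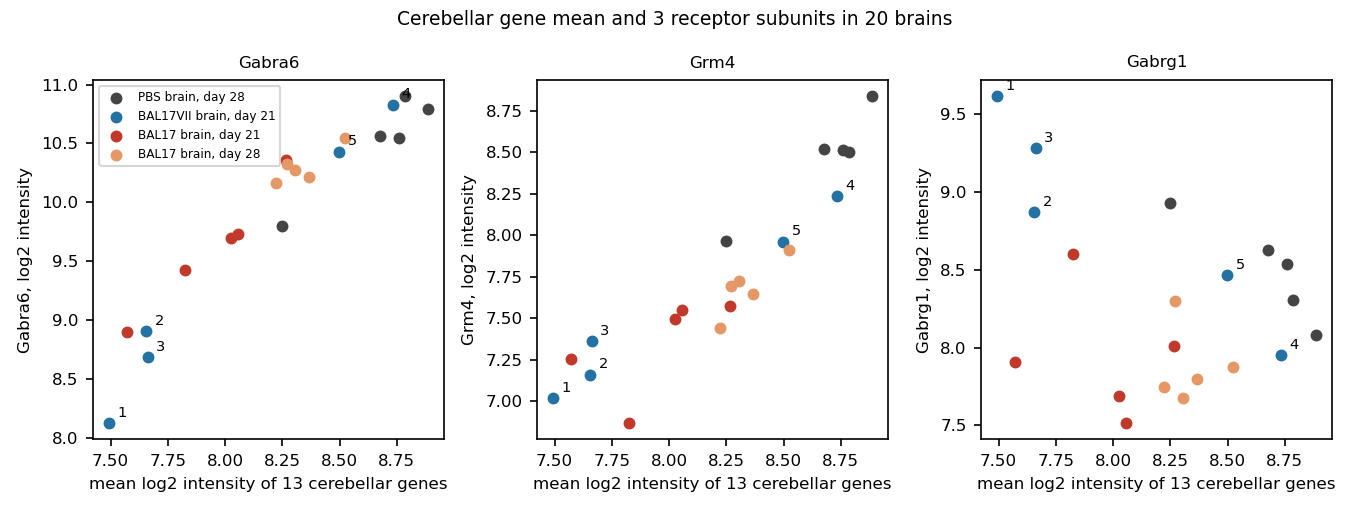
Log2 intensity of Gabra6, Grm4 and Gabrg1 (vertical, 1 panel each) against the mean log2 intensity of 13 cerebellar neuron genes (horizontal) in 20 brains. Numbers mark the replicates of BAL17VII brains: replicates 1 to 3 lie at a cerebellar mean of 7.49 to 7.66 with low Gabra6 and Grm4 and with Gabrg1 at 8.87 to 9.61, and replicates 4 and 5 at 8.50 to 8.73.

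Start regions were read for 3 of these genes. Shown are the 250 bases before a RefSeq start (GRCm38.p6) for Gabra6 and Gabrg1, which had the widest spread among BAL17VII brains, and for Gria2, whose groups of brains overlapped in every comparison. The genes shown were chosen after their values were seen. Capitals mark CG pairs, the bases at which vertebrate DNA is methylated. Of the listed genes 24 matched the promoter table, with 31 windows.
Gabra6, chr11:42321073-42321322, minus strand: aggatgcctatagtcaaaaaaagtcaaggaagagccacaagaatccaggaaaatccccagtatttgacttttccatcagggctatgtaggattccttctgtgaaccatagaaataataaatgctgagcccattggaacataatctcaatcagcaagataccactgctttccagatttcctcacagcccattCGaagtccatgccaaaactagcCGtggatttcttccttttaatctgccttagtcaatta
Gabrg1, chr5:70842618-70842867, minus strand: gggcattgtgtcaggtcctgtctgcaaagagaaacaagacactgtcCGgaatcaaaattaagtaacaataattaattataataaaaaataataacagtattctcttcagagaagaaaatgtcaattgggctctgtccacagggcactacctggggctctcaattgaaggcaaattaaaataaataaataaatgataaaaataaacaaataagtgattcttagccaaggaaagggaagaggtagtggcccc
Gria2, chr3:80802836-80803085, minus strand: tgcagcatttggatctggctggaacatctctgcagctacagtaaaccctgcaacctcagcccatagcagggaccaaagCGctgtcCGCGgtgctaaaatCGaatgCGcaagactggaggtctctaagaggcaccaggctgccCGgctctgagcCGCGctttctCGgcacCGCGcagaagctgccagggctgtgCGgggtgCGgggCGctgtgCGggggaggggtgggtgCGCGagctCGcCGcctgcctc
The windows of Gabra6 and Gabrg1 hold 2 and 1 CG pairs and that of Gria2 holds 19. Over all 32851 windows in the table the median was 6, with at most 2 pairs in 29.0% and at least 19 in 19.7%. The member windows ranged from 0 to 42, with a median of 9. This describes the sequence only, since neither methylation nor binding was measured.

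Several GABA-A receptor genes are neighbours in the mouse genome. Gabrg1, Gabra2, Gabra4 and Gabrb1 lie next to each other on chromosome 5, with 1 other coding gene between Gabra2 and Gabra4. In that cluster Gabra2, Gabra4 and Gabrb1 fell in BAL17 brains at both days, and Gabrg1 had differences of -0.55 ± 0.24 and -0.62 ± 0.24 (adjusted p = 0.0676 and 0.0569). On chromosome 11 Gabra6 adjoins Gabrb2, and their differences at day 21 were -0.89 and -0.30. On chromosome 7 Gabrg3 adjoins Gabra5, with -0.29 and -0.36 at day 21. The differences between neighbours were not tested.

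Genes that make, release and take up the transmitters also fell in BAL17 brains. Of all genes 33.1% were called lower at day 21 and 22.5% at day 28. Of 9 tested genes of glutamate release, uptake and metabolism 6 fell in BAL17 brains at day 21 (median -0.42), led by Slc1a3, the glutamine transporter gene Slc38a3 (-0.69 ± 0.11) and Slc1a2. At day 28, 4 of 9 fell. Of 7 genes of GABA synthesis, release and uptake 4 fell at day 21 (median -0.34) and 6 at day 28 (median -0.39), among them Gad1, which makes GABA from glutamate (-0.39 ± 0.08 and -0.35 ± 0.08), and Slc6a11, a GABA transporter gene (-0.65 ± 0.20 and -0.76 ± 0.20). In BAL17VII brains 1 gene of these lists fell, Gad1 (-0.28 ± 0.08, adjusted p = 0.0323), where 1.71% of all genes did.

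Scaffold genes fell as well, where 33.1% of all genes were called lower at day 21 and 22.5% at day 28. Of 27 tested glutamate receptor auxiliary and scaffold genes 22 fell at day 21 (median -0.40) and 13 at day 28 (median -0.22), against a median over all genes of -0.12 and -0.10. Cacng3, a protein that escorts AMPA receptors, differed by -0.85 ± 0.11 at day 21, Shank1, a postsynaptic scaffold, by -0.74 ± 0.10, and Dlg4, which encodes PSD-95, by -0.59 ± 0.08. Between days 21 and 28, 6 of the 27 rose, where 1.06% of all genes did. These included Shank1 at 0.55 ± 0.10, Homer1, which ties Grm5 to its scaffold, at 0.48 ± 0.10, and Dlgap1 at 0.52 ± 0.11. Of 11 genes around GABA receptors 8 fell at day 21 and 4 at day 28, with Gphn, the gephyrin scaffold, at -0.48 ± 0.10 and -0.45 ± 0.10, and Kctd16, an auxiliary subunit of the GABA-B receptor, at -0.58 ± 0.09 and -0.41 ± 0.09. Of 12 genes of glutamate receptor signalling 10 fell at day 21 and 2 at day 28, the latter a share below the 22.5% of all genes and with a median of -0.10 that equals theirs, with Plcb1, a phospholipase downstream of Grm5, at -0.47 ± 0.09 and -0.35 ± 0.09. The direct comparison at day 21 gave 16 of 27 scaffold genes and 5 of 9 glutamate release and uptake genes higher in BAL17VII than in BAL17 brains. The share of all genes called higher there was 18.1%.

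The cultured lines, the background reference, were compared with each other as well. Only Grin2c, Grik5, Grm2 and Grm4 passed the filter on low values among the cultured arrays, and their line means lay between 6.28 and 7.17. Grm4 was lower in BAL17VII than in BAL17 cells (6.28 against 6.60, -0.32 ± 0.12, adjusted p = 0.0428), where 14.5% of 10703 genes were called lower and 17.3% higher. The lines overlapped, at 6.03 to 6.64 and 6.20 to 6.85. Grm4 lay above the array median on 5 arrays of BAL17 and 1 of BAL17VII cells, and the filter asked for 6. It thus passed the filter mainly through the line where it was higher, which limits what this test shows. The call was lost in 6 of 13 alternatives that tested Grm4, among them no filter and without BAL17VII replicate 1, 2, 3 or 5. In the others Grm4 failed the filter and was not tested. These were the filter at percentile 75 and leaving out BAL17VII replicate 4 or any of BAL17 replicates 2 to 6.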

How the data were processed

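RNA of 20 mouse brains (20 arrays) and of cultured cells (12 arrays) was measured on Affymetrix whole-transcript arrays. The deposited intensity values came from RMA as run by the authors in Expression Console of Affymetrix (named in the submitters' processing notes, version not given). They run from 2.72 to 17825 on a linear scale, and log2 was taken first. Whether lines and brains were normalized together is not given in the sources used here. RMA gives no detection call, and the number of arrays limits the precision. Of 35556 probe sets 21789 carried 1 gene symbol, 1621 several and 12146 none, and 21698 had an identifier in the gene table of GRCm38.p6.

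A gene passed where it exceeded the array median, over all probe sets but 6617 control ones, on at least 5 brains (11474 genes) or 6 cultured arrays (10703 genes). A group-means model was fitted with limma 3.58.1 in R 4.3.3, two-sided, with Benjamini-Hochberg adjustment over all genes of a fit and calls under 0.05. Brain comparisons share 1 fit over 20 arrays. Differences are on the log2 scale ± SE, levels ± SD. On simulated data with 200 changed genes, the fit recovered 73% of changes of 0.5 and 100% of changes of 1 for BAL17 day 21 against PBS brains (11474 genes, 7.98% false calls), and 89% and 100% for the lines (10703 genes, 5.5% false calls). The simulation gave each gene independent noise of the same spread in all groups. It also changed far fewer genes than the 5300 called for BAL17 day 21 against PBS brains. These rates therefore need not hold for the real comparisons. Replicate numbers carry no stated pairing, and the main fit used none. Deviations of same-numbered replicates correlated at -0.415 to 0.558, which does not settle whether they pair. With a replicate block 27 receptor genes were called against PBS at day 21 and 21 at day 28 for BAL17, beside 24 and 18 without it.

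The members and the 5 pathway and 14 marker lists were chosen with earlier results of these data known. All members are named, and of each list the 3 genes with the smallest adjusted p, or list genes standing beside a receptor result. The alternatives were another normalization, centring, filters, probe set mean, moderation, array weights, a replicate block, other arrays in the fit and leaving out each array. Python 3.11.15 and pandas 2.3.3 prepared the tables.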

Additional observations from a re-analysis of the deposited data

Results flagged for a closer look

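Of 192 sets of replicates (32 genes in 6 groups), 9 held a brain or culture far from the others of its group, by the gap to its nearest neighbour over the range of the group. Chance alone gives about 1 such set in 20. Among BAL17 brains at day 28 replicate 4 was the highest for Gria3 (11.32) and for Grin2a (9.85), and replicate 2 was the lowest for Grm7 (8.12) and the highest for Gabrd (7.08), a group whose whole range was narrow. Among BAL17 brains at day 21 replicate 2 was the lowest for Grin2b (8.06) and replicate 1 for Grik1 (6.32). Replicate 2 was the lowest of the PBS brains for Grik2 (9.73) and the lowest of the BAL17VII brains for Grm8 (7.10). Replicate 1 of the BAL17VII cells was the lowest for Grin2a (4.71), at background level.

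The difference from PBS brains differed between the lines at day 21 for 14 of 31 genes, tested as BAL17VII minus BAL17 brains in limma. Of all genes tested 18.1% were called higher there. The values were 0.39 for Gria1, 0.43 for Gria4, 0.52 for Grin3a, 0.48 for Grik1, 0.30 for Grik5, 0.67 for Grm3 and 0.38 for Grm5. Among GABA receptor genes they were 0.66 for Gabra2, 0.45 for Gabra3, 0.43 for Gabra5, 0.37 for Gabrb1, 0.89 for Gabrg1, 0.42 for Gabrg3 and 0.22 for Gabbr1. Of 20 alternatives, the call was kept in 9 for Gabbr1, 10 for Gabra5, 11 for Gabra3 and 14 for Gria4. The other genes kept it in at least 18. Between the days of BAL17 growth, the difference was 0.40 for Grm3, where 1.06% of all genes were called higher.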

How the results depend on the processing

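Among the alternatives run, called differences turned their sign under the shift to an equal pan-neuron mean, which sets neuronal genes to no change on average. It moves every gene of a comparison by the same amount. It gave 5, 4 and 1 calls against PBS for BAL17 at day 21, BAL17 at day 28 and BAL17VII at day 21. Among differences called before or after it, the sign turned at day 21 against PBS for Gria2 (0.36), Gria3 (0.31), Grin2c (0.14), Grin3a (0.15), Grik2 (0.0619), Grik4 (0.29), Grik5 (0.15), Grm2 (0.11), Gabra4 (0.0775), Gabrb2 (0.19), Gabrg3 (0.19), Gabrd (0.0197) and Gabbr1 (0.14), at day 28 for Gria3 (0.31), Grik4 (0.0665), Grik5 (0.10) and Gabbr1 (0.0347), and for BAL17VII against BAL17 brains for Gria1 (-0.0011), Gria2 (-0.33), Gria3 (-0.27), Grik2 (-0.37), Grik3 (-0.21), Grik4 (-0.37), Grik5 (-0.0861), Grm2 (-0.37), Grm5 (-0.0026), Gabrb1 (-0.0185), Gabrb2 (-0.26), Gabrd (-0.36) and Gabbr1 (-0.17). With a fit on the arrays of the compared groups alone, BAL17VII against PBS gave 0 calls and day 28 against day 21 gave 2. For day 28 against day 21 median centring and no filter gave 0 calls, array weights 3 and the replicate block 2. The replicate block changed no other count by over 1.5 times, and replicate numbers carry no stated pairing. For the cultured lines array weights and the filter at percentile 75 gave 0 calls, and no filter gave 2, both higher. Leaving out 1 array gave 22 to 27 calls for BAL17 at day 21 against PBS, 13 to 19 at day 28, 1 to 11 for BAL17VII against PBS, 10 to 19 for BAL17VII against BAL17, 0 to 1 for day 28 against day 21 and 0 to 1 for the lines. Genes near the level of the cultured cells (Grin2c, Grin2d, Grik4, Grm2) have differences that background can shrink.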
